A study of Mus musculus with 12 samples.

Results

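The cells examined here were astrocytes of the mouse cerebellum at the start and the end of the first postnatal month, with the 3 libraries from postnatal day 28 (P28) set against the 3 libraries from postnatal day 1 (P1). The comparison covered every gene that reached 10 normalized counts in 3 or more of the series' 12 libraries, which left 15464 of the 24421 entries in the table. The study also sampled P7 and P14 with 3 libraries each, and these ages entered the estimate of the spread and are given as levels along the way. At every age the cells came from Aldh1l1-GFP reporter mice on the C57/BL6J background, without treatment, and were collected from dissociated cerebellum by fluorescence-activated sorting of GFP-positive cells. GFP in this line is driven by regulatory sequence of Aldh1l1, a folate enzyme gene used as a pan-astrocyte marker, so a cell entered the samples by reporter activity alone. The study states that its experiments used mice of both sexes, and the sex-linked RNA of the compared libraries is given below. No label says whether the libraries of an age came from separate mice, so the p-values measure the spread between these samples, which may be technical.

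Cerebellar astrocytes comprise Bergmann glia, whose fibres span the molecular layer and ensheath Purkinje cell synapses, velate astrocytes among the granule neurons, and fibrous astrocytes of the white matter. At birth many of these glia are still dividing progenitors, and by weaning they take up glutamate, buffer potassium and feed neurons in a mature circuit. Granule neurons are produced in large numbers in the same weeks, and oligodendrocytes myelinate the axons of the white matter.

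The 6 libraries held 7965152 to 14733985 reads on genes. The P1 libraries had a read for 17464 to 17785 genes and the P28 libraries for 14249 to 14749, and at an equal depth of 6399499 reads the expected numbers were 17001 to 17153 and 14052 to 14631. The 100 most abundant genes took 20.5% to 23.3% of the reads at P1 and 31.2% to 32.2% at P28. All pairs of libraries within an age differed by more than sampling noise, so none was counted as a repeat. On log2 values the correlation was 0.928 to 0.951 within P1, 0.849 to 0.862 within P28 and 0.755 to 0.779 between the ages. Xist, the RNA that silences an X chromosome in female cells, stood at 28.9, 20.7 and 14.4 in the P1 libraries and 24.8, 62.5 and 21100 in the P28 libraries. Ddx3y, a gene of the Y chromosome, stood at 721, 837 and 624 in the P1 libraries and 1040, 645 and 6.76 in the P28 libraries. P28 replicate 3 thus differed from the other 5 libraries in sex-linked RNA, so the ages were not matched in this respect. Values without that library are given where it decides a result. Rn45s, an entry for the ribosomal RNA precursor, held 2.19% to 2.98% of the reads at P1 and 3.18% to 3.93% at P28.

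The astrocyte label was checked against 10 markers. Aldh1l1 stood at 6440, 4740 and 3840 in the P1 libraries and 2450, 3340 and 2970 in the P28 libraries, and the log2 fold change was -0.76 ± 0.25 (SE, adjusted p = 0.0286). This fall lay at the edge of the threshold and was lost without the first P1 library (-0.56, adjusted p = 0.136), without the second (adjusted p = 0.0557) or without the first P28 library (-0.64, adjusted p = 0.0878). The other 9 markers, Slc1a3, Slc1a2, Gja1, Gfap, Aqp4, Aldoc, Sox9, Glul and S100b, were all detected in every library and all rose. In bulk RNA such as this, fewer cells of a type and less RNA per cell cannot be told apart.

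Markers of several other cell types moved strongly between the ages. Over all tested genes, 13.3% were higher and 18.7% lower at P28, by the thresholds given below. Microglia genes lay under both shares (5.88% and 11.8%). Choroid plexus and endothelial genes lay under the share of lower genes (13.3% and 5.56%). The summed level of 20 myelin genes was 361 to 487 CPM (counts scaled to a common library total) at P1 and 9580 to 14800 CPM at P28, and 20 of 20 were higher. Mbp, the gene of myelin basic protein, stood at 900, 704 and 338 in the P1 libraries and 85700, 95700 and 67700 in the P28 libraries. The 11 granule neuron markers, all of them higher, summed to 182 to 198 CPM at P1 and 1250 to 1310 CPM at P28. Of 8 granule neuron precursor genes 5 were lower and 2 higher, with sums of 735 to 873 and 515 to 683 CPM. Sums in CPM rest on library totals, whereas the calls rest on normalized counts. Library totals place P28 lower against P1 (median change of all genes -0.66, against -0.235). A small fall of a sum in CPM need not be a fall in normalized counts. Of 16 pan-neuronal genes 3 were higher and 5 lower (1070 to 2150 and 1760 to 2070 CPM). Without P1 replicate 1 or P28 replicate 2, 1 pan-neuronal gene was higher, and without P1 replicate 3, 3 were lower. Choroid plexus and ependyma markers summed to 476 to 889 CPM at P1 and to 11800, 18500 and 1810 CPM in the 3 P28 libraries, with 6 of 15 higher and 2 lower (4 lower without P28 replicate 2 and 1 lower without P28 replicate 3 or with any P1 library left out). Ttr, the thyroid hormone carrier made by choroid plexus epithelium, stood at 685, 289 and 221 in the P1 libraries and 102000, 180000 and 17400 in the P28 libraries. All P28 libraries lay above P1 for Ttr, and replicate 3 was the lowest of them. Ttr held 0.88%, 1.48% and 0.138% of the reads in the P28 libraries, most of the 1.18%, 1.85% and 0.181% on the whole list. The mean log2 level over the list overlapped between the ages (5.949, 6.957 and 5.559 at P1, and 7.892, 8.253 and 5.781 at P28). Fibroblast and meningeal markers went the other way, from 2410 to 8680 CPM at P1 (highest in the second library) to 1010 to 1220 CPM at P28, with 8 of 11 lower and 0 higher, but 5 lower without P1 replicate 2.

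Purkinje cell markers summed to 1390 to 1580 CPM at P1 and 5100 to 6060 CPM at P28, a sum that is mostly Aldoc, which astrocytes express as well. They went both ways, with 6 of 11 tested genes higher and 3 lower, or 1 lower without P1 replicate 3. Pcp2, a gene largely restricted to Purkinje cells in this tissue, stood at 2.46, 1.43 and 3.03 in the P1 libraries and 121, 112 and 86.5 in the P28 libraries. GABAergic interneuron markers summed to 81.9 to 493 CPM at P1 and to 42.6 to 48.7 CPM at P28, with 5 of 12 lower and 1 higher, but 3 lower without P1 replicate 3 or without P28 replicate 1. Of 11 oligodendrocyte precursor genes, 5 were lower and 0 higher, among them Pdgfra at 3000, 4770 and 3160 in the P1 libraries and 475, 231 and 352 in the P28 libraries, and 2 were higher without P28 replicate 1 and 1 without P28 replicate 2. Microglia held 181 to 380 CPM at P1 and 187 to 269 CPM at P28, with 2 of 17 genes lower and 1 higher, and endothelial and pericyte genes 476 to 1310 and 649 to 845 CPM, with 5 of 18 higher and 1 lower. Without P1 replicate 1 the endothelial counts were 3 higher and 2 lower, and 2 were also lower without P1 replicate 3 or P28 replicate 2 or 3. Without P1 replicate 1 or 2, 1 microglial gene was lower, and without P28 replicate 3, 2 were higher. The red blood cell list had 9 genes, of which 1 reached the filter, and 6 had no read at P1 and 7 none at P28. The defining marker Gabra6 of granule neurons had no read in any P1 library. What part these cells had in the results below was not tested.

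**Figure D1:**
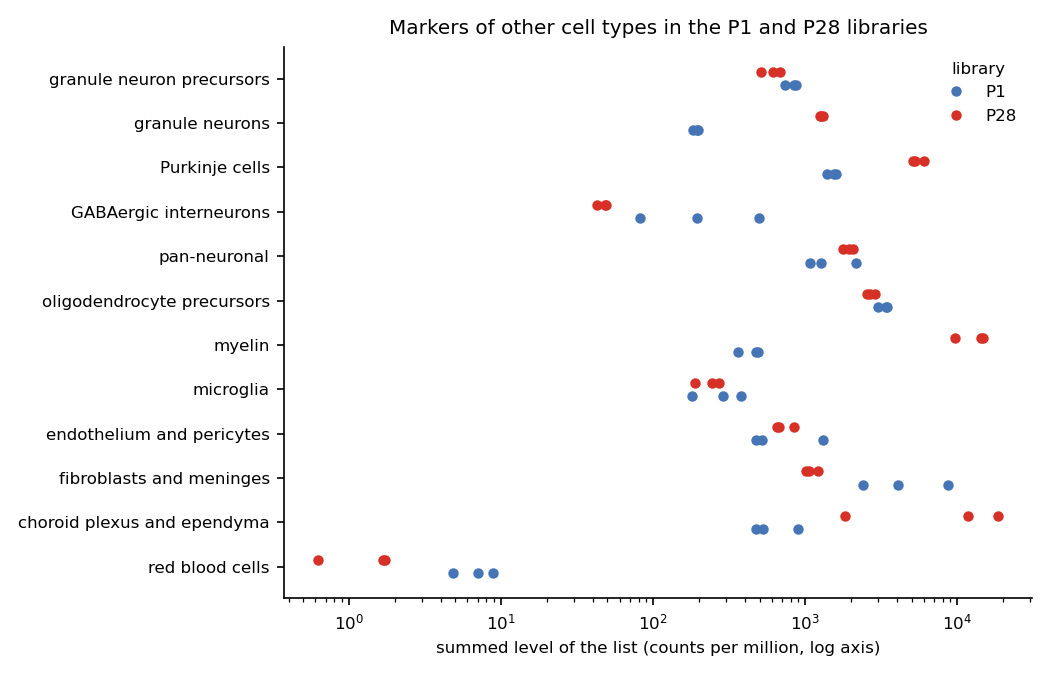
Summed level of marker lists of other cell types in the 3 P1 and 3 P28 libraries, in CPM on a log axis, with a point for each library. Myelin and granule neuron markers lay higher in every P28 library, fibroblast and GABAergic interneuron markers lower, and choroid plexus markers spread from 1810 to 18500 CPM within P28.

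Over the month, 2057 genes (13.3% of those tested) rose and 2891 (18.7%) fell, at an adjusted p under 0.05 (limma, Benjamini-Hochberg over 15464 genes) and a log2 fold change over 0.75 in size. Values were normalized counts, and fold changes are differences of log2(normalized count + 1). Adding 1 shrinks the change of low genes, but fitted falls were not always smaller than by count-based tests. The median of the mitosis genes, for instance, was -4.97 here and -4.51 by DESeq2. The median change of all tested genes was -0.235, and it was 1.6 among the genes called higher and -2.8 among those called lower. Larger changes were mostly losses, as 742 genes rose and 1900 fell by more than 2 on the log2 scale, and 76 rose and 321 fell by more than 5. In 2775 genes (17.9%) every P28 library lay above every P1 library, and in 3704 (24.0%) every one lay below.

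The direction of the calls differed with abundance in CPM. A single read stood for 0.6152 to 0.7572 normalized counts at P1 and 1.179 to 1.461 at P28, which bears on low genes. Among genes under 5 CPM in the higher of the 2 groups, 62 rose and 710 fell, whereas among those over 500 CPM, 152 rose and 49 fell. Of the tested genes, 490 had no read in any P28 library, of which 394 were called lower. A further 23 had no read in any P1 library, of which 8 were called higher. Genes without reads at an age passed the filter by their reads at other ages, P7 and P14 included. The 490 genes thus need not all have been expressed at P1, and which ages carried them was not tested. As a single read stood for more normalized counts at P28, the numbers 490 and 23 are not directly comparable. As a description of the sets so chosen, the genes called higher held 18.1% to 20.7% of all reads at P1 and 46.3% to 48.2% at P28, and those called lower held 19.6% to 20.5% at P1 and 4.73% to 5.2% at P28. Scaling by library totals moved the median of all genes to -0.66 and gave 1222 higher and 4759 lower genes, so that 20.4% in place of 41.6% of the calls were rises. Among the genes named below, Glul, Slc6a9, Klf9, Sox9, Cdkn1a, Hk1, Atp5b and Lamp1 then no longer passed. With at least 10 reads required in every library, 10911 genes remained, of which 1918 rose and 1358 fell, 58.5% of the calls being rises.

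**Figure D2:**
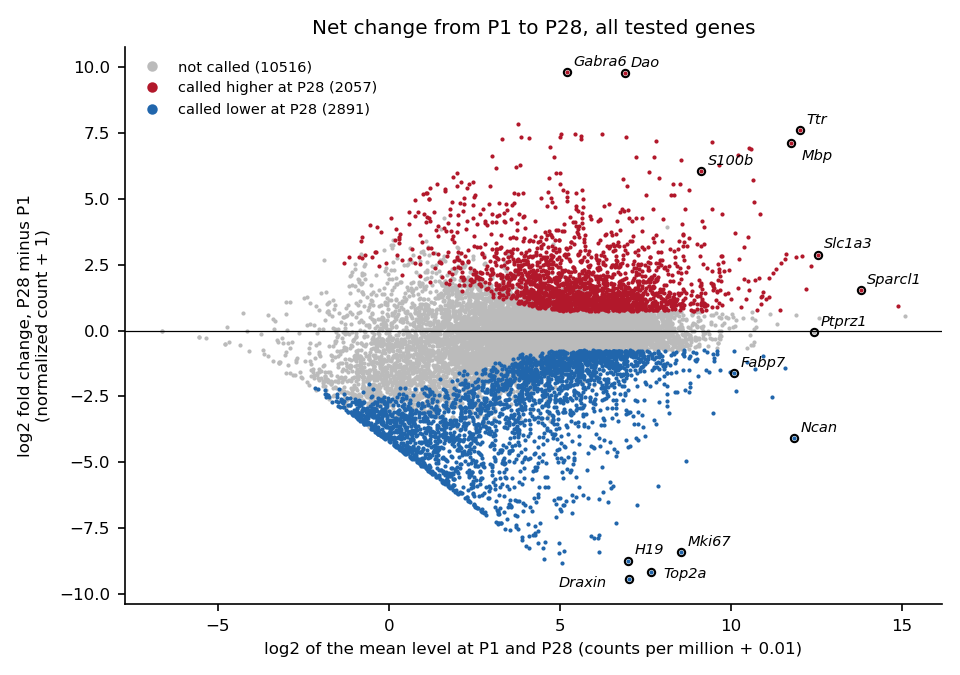
Log2 fold change from P1 to P28 of each of the 15464 tested genes against the log2 of its mean level over both ages in CPM (with 0.01 added), with genes called higher in red, called lower in blue and not called in grey. Falls outnumber rises under 5 CPM in the higher group (710 against 62), and rises outnumber falls over 500 CPM (152 against 49).

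Of 22 genes of potassium, water and ion homeostasis, 17 rose, 1 fell and 4 did not pass, with a median log2 change of 1.68 against -0.235 over all genes. Aqp4, the water channel of astrocyte endfeet, stood at 9510, 12100 and 7440 in the P1 libraries and 62800, 61000 and 61600 in the P28 libraries. Its 3 P28 libraries differed by little and all exceeded P1 (log2 fold change 2.7 ± 0.23, adjusted p = 1.02e-06). Kcnj10, an inward rectifier potassium channel, stood at 3340, 2820 and 3100 in the P1 libraries and 14200, 16800 and 15500 in the P28 libraries (log2 fold change 2.33 ± 0.18, adjusted p = 3.54e-07). The groups did not overlap for either gene. Atp1b2, a subunit of the sodium pump, and the bicarbonate cotransporter Slc4a4 rose by 2.91 and 2.19 on the log2 scale, and Mlc1 and Hepacam, membrane proteins of astrocyte junctions, by 2.57 and 1.54. The largest changes were in regulators of the sodium pump. Fxyd1, phospholemman, stood at 110, 172 and 51.5 in the P1 libraries and 8460, 8900 and 9580 in the P28 libraries (log2 fold change 6.49 ± 0.34, adjusted p = 9.81e-09). Its relative Fxyd6 was the single member that fell. Fxyd6 stood at 1380, 1320 and 1590 in the P1 libraries and 27.8, 94.4 and 73 in the P28 libraries (log2 fold change -4.6 ± 0.35, adjusted p = 2.92e-07).

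In glutamate uptake and recycling, 8 of 18 genes rose and 4 fell (median 0.86). Slc1a3, the transporter GLAST that predominates in Bergmann glia, stood at 20900, 13200 and 16000 in the P1 libraries and 108000, 125000 and 132000 in the P28 libraries (log2 fold change 2.88 ± 0.23, adjusted p = 5.96e-07). The gene lies on chromosome 15 (8634124 to 8710764) of GRCm38. Slc1a2, the transporter GLT-1, stood at 12500, 14200 and 10700 in the P1 libraries and 86800, 82300 and 93600 in the P28 libraries (log2 fold change 2.82 ± 0.21, adjusted p = 2.41e-07). All P28 libraries lay several-fold above all P1 libraries for both transporters. Glul, glutamine synthetase, rose by 1.18 and Slc38a1, a glutamine transporter, by 2.82. The members that fell included metabotropic receptors for glutamate. Grm5 stood at 1310, 1460 and 915 in the P1 libraries and 54.1, 127 and 146 in the P28 libraries (log2 fold change -3.57 ± 0.35, adjusted p = 3.84e-06), and Grm3 fell by 1.31 on the log2 scale. Slc1a5, a neutral amino acid exchanger, stood at 107, 267 and 84 in the P1 libraries and 2.92, 1.18 and 1.35 in the P28 libraries (log2 fold change -5.63 ± 0.63, adjusted p = 1.17e-05).

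Of 11 genes of GABA and glycine transport and breakdown 5 rose and 2 fell, or 4 fell without P28 replicate 2 (median 0.14, and -0.3 when scaled by library totals). Slc6a11, the glial transporter GAT-3, stood at 18800, 21000 and 13300 in the P1 libraries and 2350, 4040 and 4810 in the P28 libraries (log2 fold change -2.28 ± 0.38, adjusted p = 0.000381). All P28 libraries lay below all P1 libraries. Slc6a9, the glycine transporter GlyT1, rose by 0.94 but was lost without P1 replicate 2 or 3 (adjusted p = 0.0516 and 0.121) or P28 replicate 1 or 3 (adjusted p = 0.0839 and 0.0712). Slc6a13, a GABA transporter of meninges that also stands among the fibroblast markers, fell by 2.07.

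Of 13 GABA-A receptor subunit genes, 8 rose and 2 fell (median 1.39). Gabra6, a subunit gene of mature granule neurons, had no read in the P1 libraries and stood at 1010, 800 and 872 in the P28 libraries. It lies on chromosome 11 (42306437 to 42321072). With no read at P1 its rise was at least 429-fold, against a floor of 3 reads per library. Gabra2 stood at 48.6, 55.7 and 123 in the P1 libraries and 4820, 5200 and 3660 in the P28 libraries (log2 fold change 6.0 ± 0.33, adjusted p = 1.38e-08), and Gabrg1 at 576, 595 and 488 in the P1 libraries and 1330, 1380 and 1640 in the P28 libraries (log2 fold change 1.39 ± 0.26, adjusted p = 0.00105), the latter a subunit known from Bergmann glia. Gabra5 fell, from 21.5, 69.3 and 86.3 at P1 to no read in any P28 library. These shifts stood beside the rise of the 11 granule neuron markers given above.

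Of 24 genes of Bergmann glia and their progenitors 11 rose and 8 fell (median 0.32, and -0.12 when scaled by library totals). Gria1, an AMPA receptor subunit that makes Bergmann glia permeable to calcium, stood at 1050, 326 and 1040 in the P1 libraries and 35000, 33800 and 44600 in the P28 libraries (log2 fold change 5.72 ± 0.36, adjusted p = 4.21e-08). Gria4 stood at 1340, 890 and 1840 in the P1 libraries and 41400, 31900 and 40800 in the P28 libraries (log2 fold change 4.86 ± 0.22, adjusted p = 2.33e-09). S100b, a calcium-binding protein of mature astrocytes, stood at 274, 185 and 154 in the P1 libraries and 13100, 11600 and 15300 in the P28 libraries (log2 fold change 6.05 ± 0.24, adjusted p = 5.75e-10). The groups did not overlap for any of these 3 genes. Hopx and Gdf10, markers of Bergmann glia, rose by 4.6 and 3.92, Aldoc by 2.56 and Npy by 5.32. Nes, the intermediate filament gene of neural progenitors, stood at 3510, 1820 and 3030 in the P1 libraries and 262, 349 and 273 in the P28 libraries (log2 fold change -3.2 ± 0.28, adjusted p = 1.32e-06). Hes5, a repressor downstream of Notch, stood at 666, 530 and 399 in the P1 libraries and 14.6, 0 and 2.71 in the P28 libraries (log2 fold change -7.08 ± 0.99, adjusted p = 8.55e-05). Fabp7, the brain lipid-binding protein of radial glia, fell by 1.62. Vim stood at 18200, 15800 and 15200 at P1 and 14200, 16800 and 21500 at P28, with overlapping groups (log2 fold change 0.07 ± 0.17, adjusted p = 0.77).

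**Figure D3:**
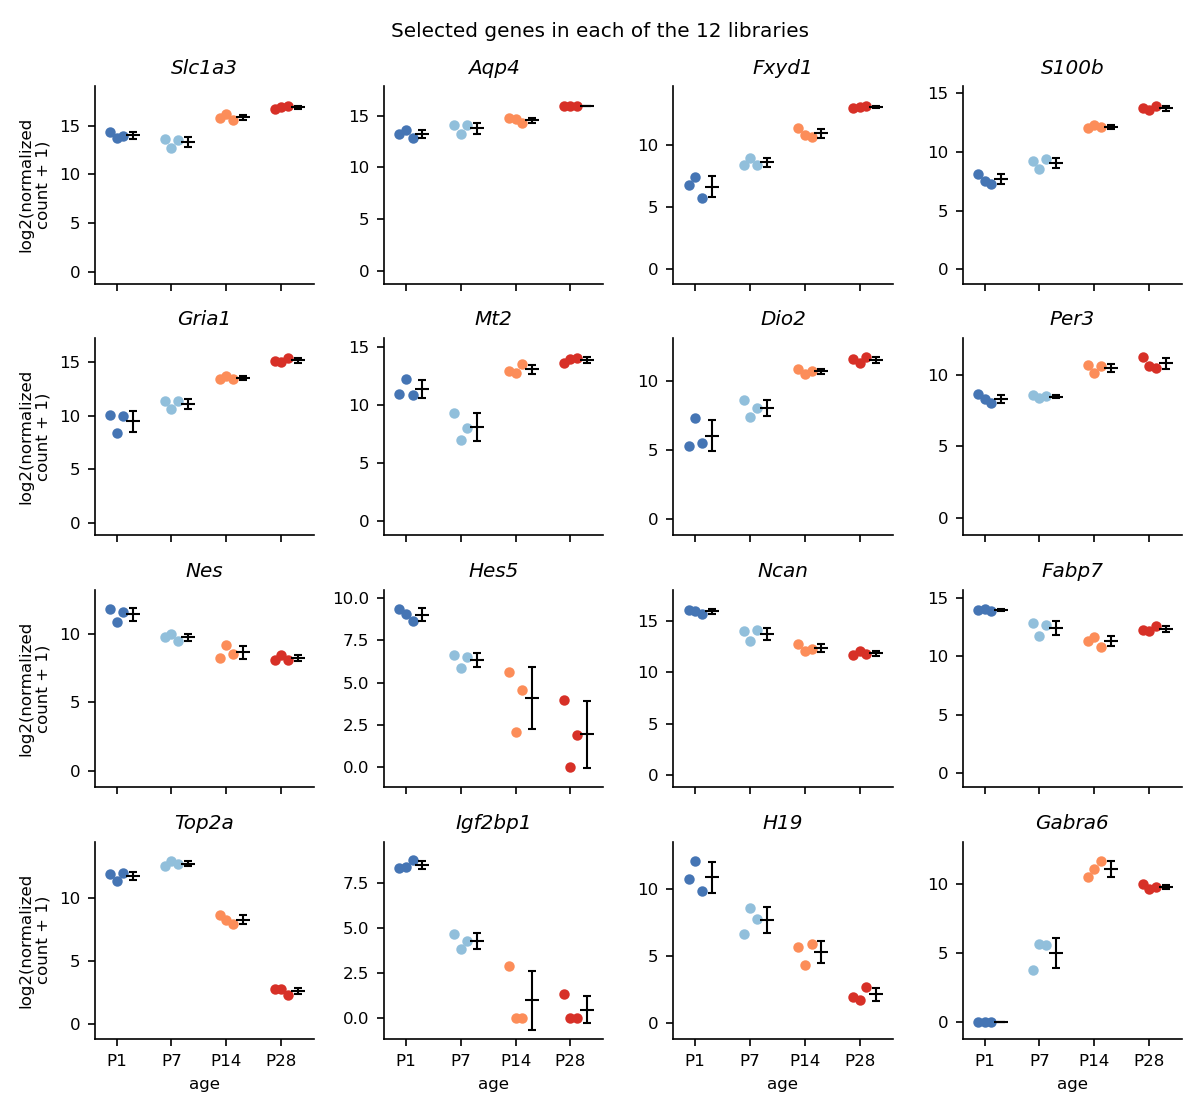
Log2(normalized count + 1) of 16 genes in each of the 12 libraries, by age, with the mean and SD of the 3 libraries in black. The first 8 genes and Gabra6 lie higher in every P28 than in every P1 library, and the other 7 lie lower, Gabra6, Hes5 and Igf2bp1 reaching 0 in some libraries.

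Connexins, which join astrocytes and oligodendrocytes into a coupled network, rose in 4 of 6 genes and fell in 0 (median 2.61). Gja1, connexin 43, stood at 3760, 5630 and 2970 in the P1 libraries and 14400, 14100 and 15900 in the P28 libraries (log2 fold change 1.89 ± 0.21, adjusted p = 1.24e-05). Gjb6, connexin 30, rose by 3.05, and Gjc3, a connexin expressed by oligodendrocytes, by 4.62. Gjb2 and Gjb1 did not pass, and Gjc3 and Gjb1 are genes of oligodendrocytes, whose myelin markers rose in the same libraries.

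Among genes of serine and glycine metabolism, 5 of 13 rose and 1 fell (median -0.06, but 0.65 by edgeR with TMM and -0.5 when scaled by library totals). The number higher was 3 without P1 replicate 1 or P28 replicate 3 and 2 without P1 replicate 3, and 2 genes were lower without P28 replicate 2 or 3. Scaled by library totals, 1 was higher and 3 were lower. Dao, D-amino acid oxidase, which degrades D-serine in cerebellar glia, stood at 0.615, 2.86 and 4.54 in the P1 libraries and 3210, 2990 and 2380 in the P28 libraries (log2 fold change 9.77 ± 0.56, adjusted p = 2.04e-08). This was the largest rise of any called gene that had a read at P1. Phgdh and Psat1, which start serine synthesis, did not pass, at 2670, 2260 and 2250 and 1660, 2320 and 1780 for Phgdh at P1 and P28.

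Of 75 tested nuclear genes for subunits of oxidative phosphorylation, 45 rose and 0 fell, with a median of 0.88 and a range from -0.05 to 1.63. With each library left out in turn, 36 to 46 of them were called, but 14 when the libraries were scaled by their totals (median 0.45). Atp5b, a subunit of ATP synthase, stood at 4480, 5010 and 3570 in the P1 libraries and 8710, 8330 and 8490 in the P28 libraries (log2 fold change 0.98 ± 0.15, adjusted p = 0.000156). Glycolysis and lactate genes rose in 12 of 25 cases and fell in 1. Ldhb, the lactate dehydrogenase subunit that favours pyruvate, stood at 998, 1120 and 1000 in the P1 libraries and 4440, 4130 and 3640 in the P28 libraries (log2 fold change 1.97 ± 0.17, adjusted p = 7.92e-07). It lay higher in every P28 library. Hk2, a hexokinase, stood at 148, 174 and 162 in the P1 libraries and 886, 954 and 1100 in the P28 libraries (log2 fold change 2.59 ± 0.29, adjusted p = 1.14e-05). Ldha, the subunit that favours lactate, overlapped between the ages (log2 fold change 0.54 ± 0.34, adjusted p = 0.233). Hk1 rose by 1.09 and the muscle-type phosphofructokinase gene Pfkm by 2.31. Slc16a3, a lactate exporter, fell, from 25.8, 163 and 7.57 in the P1 libraries to 1.46, 0 and 1.35 in the P28 libraries.

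In glycogen metabolism 6 of 14 genes rose and 1 fell (median 0.5), and the phosphorylase isoforms moved in opposite directions. Pygm, the muscle-type phosphorylase, stood at 65.8, 55.7 and 38.6 in the P1 libraries and 1310, 558 and 1100 in the P28 libraries (log2 fold change 4.13 ± 0.41, adjusted p = 4.54e-06). Pygl, the liver-type phosphorylase, stood at 287, 942 and 452 in the P1 libraries and 4.38, 133 and 1.35 in the P28 libraries (log2 fold change -5.38 ± 1.09, adjusted p = 0.00168). Pygl stood highest among the P28 libraries in replicate 2. The brain-type gene Pygb stood at 5280, 5400 and 4170 at P1 and 5820, 6590 and 7400 at P28 and did not pass.

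Fatty acid activation and oxidation rose in 9 of 25 genes and fell in 1 (median 0.46). Acsbg1, a very long chain acyl-CoA synthetase of Bergmann glia, stood at 1500, 1250 and 769 in the P1 libraries and 10600, 10400 and 11700 in the P28 libraries (log2 fold change 3.27 ± 0.28, adjusted p = 9.21e-07). Lipoprotein and efflux genes rose in 6 of 17 and fell in 3 (median 0.41, and -0.02 when scaled by library totals). Lcat, the enzyme that esterifies cholesterol on lipoproteins, stood at 124, 144 and 84 in the P1 libraries and 2770, 2410 and 2810 in the P28 libraries (log2 fold change 4.52 ± 0.28, adjusted p = 4.67e-08). Apoe, the main apolipoprotein of brain, rose by 1.46 and Clu by 2.36, whereas the cholesterol exporter Abca1 fell by 1.05. Of 24 genes of cholesterol synthesis 2 rose and 1 fell (median -0.06), and with each library left out 1 to 4 were higher (4 without P1 replicate 2) and 0 to 3 lower (3 without P28 replicate 2). Of 34 lysosomal genes 13 rose and 1 fell (median 0.61), led in abundance by Lamp1 with a rise of 1.18 and Psap with 1.52, and 8 to 14 were higher (8 without P1 replicate 3) and 0 to 2 lower with each library left out, but 4 higher and 3 lower under scaling by library totals.

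Metallothioneins bind zinc and copper, and 4 of 11 genes of this group rose and 1 fell (median 0.31, and -0.13 when scaled by library totals). Mt2 stood at 1960, 4850 and 1850 in the P1 libraries and 12200, 16100 and 17400 in the P28 libraries (log2 fold change 2.54 ± 0.47, adjusted p = 0.000919). Mt1 stood at 994, 2200 and 1010 in the P1 libraries and 4710, 7300 and 5010 in the P28 libraries (log2 fold change 2.09 ± 0.34, adjusted p = 0.000278). The second P1 library was the highest of its age for both, and still below all P28 libraries. Mt3 had low counts and overlapped between the ages (log2 fold change 0.04 ± 0.99, adjusted p = 0.981). Slc39a12, a zinc importer, rose by 2.67. The zinc transporter of synaptic vesicles, Slc30a3, fell to no read at P28.

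Metal response elements were searched in the 250 bases before the start of the Mt genes because both rose together. Sequences are from RefSeq on GRCm38.p6, on the gene's own strand, with letters TGCACNC or TGCGCNC on either strand in capitals. These letters occurred in 21.3% of the 27025 promoters compared, which did not cover every chromosome. They stood in 6 of the 10 tested genes of the group that could be matched (60%). Of these 10 genes 4 rose and 1 fell, with the letters in 3 and 1 of them.
Mt1, chr8:94178839-94179088, plus strand: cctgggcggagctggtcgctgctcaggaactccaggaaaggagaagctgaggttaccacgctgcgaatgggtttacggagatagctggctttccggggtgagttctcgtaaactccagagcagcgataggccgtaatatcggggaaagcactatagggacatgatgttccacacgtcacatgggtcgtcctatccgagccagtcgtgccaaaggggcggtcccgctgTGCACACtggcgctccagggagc
Mt2, chr8:94172368-94172617, plus strand: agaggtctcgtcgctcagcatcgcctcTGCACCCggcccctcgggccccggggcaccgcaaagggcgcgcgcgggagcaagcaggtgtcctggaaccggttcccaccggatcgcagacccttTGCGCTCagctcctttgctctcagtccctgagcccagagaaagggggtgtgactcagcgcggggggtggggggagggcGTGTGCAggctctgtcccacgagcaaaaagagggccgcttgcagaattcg
The Mt1 window held 1 match and the Mt2 window 3. In the GENCODE annotation Mt1 starts at 94179082 and Mt2 at 94172664. By these positions the Mt1 window runs past the start and the Mt2 window stops short of it.

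Of 14 tested genes of thyroid hormone handling 7 rose and 1 fell, or 2 fell without P28 replicate 3 (median 0.71). Dio2, the deiodinase by which astrocytes convert thyroxine to its active form, stood at 36.9, 159 and 43.9 in the P1 libraries and 3020, 2430 and 3330 in the P28 libraries (log2 fold change 5.48 ± 0.44, adjusted p = 5.18e-07). Thrb, a receptor, stood at 135, 65.7 and 96.9 in the P1 libraries and 722, 275 and 764 in the P28 libraries (log2 fold change 2.47 ± 0.40, adjusted p = 0.000308). Klf9, a target of the receptor, rose by 1.17 and Hr, another, by 1.94, the last with an adjusted p = 0.052 without P1 replicate 3. Crym, a cytosolic binding protein of the hormone, stood at 106, 205 and 175 in the P1 libraries and 0, 0 and 1.35 in the P28 libraries (log2 fold change -6.88 ± 0.95, adjusted p = 8.04e-05). Crym was the member of the list that fell. Ttr made the largest contribution to the list's summed level in each P28 library (2770 to 16300 CPM). Ttr is itself a choroid plexus marker and made up most of that list's sum at P28.

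Clock genes rose in 10 of 20 cases and fell in 3, or in 1 without P1 replicate 1 or 2 (median 1). Per3 stood at 391, 311 and 255 in the P1 libraries and 2370, 1580 and 1430 in the P28 libraries (log2 fold change 2.47 ± 0.24, adjusted p = 3.26e-06). Nr1d1, the repressor REV-ERBα, stood at 375, 440 and 507 in the P1 libraries and 3360, 5150 and 5320 in the P28 libraries (log2 fold change 3.37 ± 0.23, adjusted p = 1.19e-07). Nr1d1 overlaps Thra on the opposite strand and Dbp overlaps Sphk2, and since the use of strand in counting is not stated, their reads cannot be told apart. Dbp rose by 3.51 and Tef by 1.95. Per1 and Nfil3 fell, Per1 by 1.3, but the adjusted p of Per1 was 0.0679 without the second P1 library. Arntl and Clock did not pass. The time of day of collection was not given in the sources used here. The letters CACGTG of the E-box stood in the promoter window of 5 of 17 clock genes and in 6.05% of the 27025 promoters compared. They stood in 2 of the 10 genes called higher and in 2 of the 3 called lower.

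Of 14 genes of hedgehog signalling 5 rose and 2 fell, or 4 fell without P28 replicate 2 (median 0.32, and -0.12 when scaled by library totals). Ptch1, receptor and target of the pathway, stood at 4130, 2420 and 3150 in the P1 libraries and 8810, 9940 and 9880 in the P28 libraries (log2 fold change 1.59 ± 0.20, adjusted p = 2.88e-05). Gli1, its transcriptional target, stood at 248, 88.6 and 247 in the P1 libraries and 750, 747 and 517 in the P28 libraries (log2 fold change 1.91 ± 0.40, adjusted p = 0.00215). Shh, the ligand, which was called lower, stood at 24, 14.3 and 20.4 in the P1 libraries and had no read in the P28 libraries. Smo, Gli2 and Gli3 did not pass. Notch genes fell in 8 of 21 cases and rose in 0 (median -1.01). Dll1, a ligand of Notch, stood at 646, 275 and 338 in the P1 libraries and 1.46, 10.6 and 8.11 in the P28 libraries (log2 fold change -5.94 ± 0.72, adjusted p = 2.69e-05). Notch1 stood at 6570, 3530 and 4270 at P1 and 2430, 2890 and 3230 at P28, below the fold threshold (log2 fold change -0.71 ± 0.20, adjusted p = 0.0147).

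Of 63 mitosis genes 59 fell and 1 rose (median -4.97), and of 46 DNA replication genes 27 fell and 0 rose (median -1.99). With each library left out in turn, 54 to 60 mitosis genes and 20 to 29 replication genes were lower. Among genes with 10 reads in every library the medians were -1.76 and -1.19. Top2a, topoisomerase IIα, stood at 3880, 2730 and 4220 in the P1 libraries and 5.85, 5.9 and 4.06 in the P28 libraries (log2 fold change -9.16 ± 0.26, adjusted p = 3.33e-11). Top2a lies on chromosome 11 (98992943 to 99024189). Mki67, the Ki-67 antigen of cycling cells, stood at 8300, 3950 and 7870 in the P1 libraries and 30.7, 9.44 and 18.9 in the P28 libraries (log2 fold change -8.41 ± 0.39, adjusted p = 2.33e-09). Cdk1, the kinase that starts mitosis, stood at 186, 129 and 170 in the P1 libraries and had no read in the P28 libraries. No P28 library held a read of Cdk1, so its level was at least 40.5-fold lower. Mcm6, a subunit of the replicative helicase, stood at 1090, 738 and 1080 in the P1 libraries and 13.2, 60.1 and 16.2 in the P28 libraries (log2 fold change -5.28 ± 0.48, adjusted p = 1.68e-06). Pcna, the sliding clamp that also serves DNA repair, stood at 1940, 1420 and 1560 in the P1 libraries and 834, 853 and 558 in the P28 libraries (log2 fold change -1.14 ± 0.22, adjusted p = 0.00112). The fitted fall of Pcna was smaller than that of Mcm6, and the groups did not overlap for either gene.

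Cyclins and their regulators followed, with 12 of 22 genes lower and 3 higher, or 1 higher without P1 replicate 1 (median -1.83). Ccnd2 stood at 2620, 1850 and 3250 in the P1 libraries and 368, 444 and 150 in the P28 libraries (log2 fold change -3.1 ± 0.39, adjusted p = 3.32e-05), and Ccnd1 fell by 1.82. The inhibitor Cdkn1a overlapped between the ages and was lost with 5 of the 6 libraries left out in turn (adjusted p between 0.0561 and 0.15). Hmgb2, a chromatin protein of dividing cells, stood at 2890, 2650 and 3220 in the P1 libraries and 308, 256 and 158 in the P28 libraries (log2 fold change -3.64 ± 0.24, adjusted p = 6.82e-08). Of 26 high mobility group and chromatin genes 11 fell and 3 rose (median -0.7). Ezh2, the Polycomb methyltransferase of proliferating cells, stood at 553, 433 and 738 in the P1 libraries and 193, 95.5 and 227 in the P28 libraries (log2 fold change -1.79 ± 0.31, adjusted p = 0.000529). Uhrf1 and Dnmt1, which copy DNA methylation at replication, fell by 4.5 and 1.86, and the de novo enzyme Dnmt3a stood at 2980, 2710 and 2690 at P1 and 1790, 2140 and 2490 at P28 and did not pass.

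The 250 bases before the start of 3 of these genes are shown because 59 of the 63 mitosis genes and 27 of the 46 replication genes fell. Capitals mark E2F letters (TTTGGCGC, TTTCCCGC, TTTCGCGC or TTTGCCGC), the cell cycle homology region (TTTGAA or TTCGAA) and CCAAT boxes, each on either strand. Sequences are from RefSeq on GRCm38.p6, on the gene's own strand.
Mcm6, chr1:128359706-128359955, minus strand: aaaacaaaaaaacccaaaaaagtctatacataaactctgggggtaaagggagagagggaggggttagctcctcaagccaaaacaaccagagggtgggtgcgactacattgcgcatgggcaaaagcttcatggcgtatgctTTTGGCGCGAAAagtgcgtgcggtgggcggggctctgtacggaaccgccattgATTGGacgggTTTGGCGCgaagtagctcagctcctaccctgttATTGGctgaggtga
Top2a, chr11:99024190-99024439, minus strand: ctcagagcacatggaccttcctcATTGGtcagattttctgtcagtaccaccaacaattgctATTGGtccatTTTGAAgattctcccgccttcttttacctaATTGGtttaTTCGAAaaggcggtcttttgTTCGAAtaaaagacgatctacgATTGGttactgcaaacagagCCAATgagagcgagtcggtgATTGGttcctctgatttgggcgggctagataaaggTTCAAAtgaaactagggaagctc
Cdk1, chr10:69352913-69353162, minus strand: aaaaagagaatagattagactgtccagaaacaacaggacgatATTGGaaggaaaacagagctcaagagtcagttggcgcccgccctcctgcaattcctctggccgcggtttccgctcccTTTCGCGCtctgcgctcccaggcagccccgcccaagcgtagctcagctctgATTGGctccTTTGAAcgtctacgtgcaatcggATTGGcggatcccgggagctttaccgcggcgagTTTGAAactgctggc
CCAAT stood in 37 of 51 mitosis and 23 of 37 replication promoters that could be matched, and in 34.5% of all 27025. The cell cycle homology region stood in 20 of the mitosis and 6 of the replication promoters (17.4% of all), and the E2F letters in 4 and 8 (1.91% of all). Mcm6 held 3 E2F matches, of which a pair overlap, and 2 CCAAT boxes. Top2a held 4 matches to the cell cycle homology region and 6 CCAAT boxes, and Cdk1 held 1 E2F match, 2 to the cell cycle homology region and 3 CCAAT boxes.

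Of 9 tested genes around Lin28, 5 fell and 0 rose (median -3.18). Igf2bp1, an RNA-binding protein of the fetal programme, stood at 328, 336 and 438 in the P1 libraries and 1.46, 0 and 0 in the P28 libraries (log2 fold change -8.08 ± 0.87, adjusted p = 8.59e-06). Hmga2, a fetal chromatin protein, stood at 196, 168 and 266 in the P1 libraries and 1.46, 2.36 and 0 in the P28 libraries (log2 fold change -6.68 ± 0.84, adjusted p = 3.75e-05). Lin28a, Lin28b, Hmga1, Trim71 and Dppa4 did not reach the filter. Imprinted genes, expressed from the copy of a single parent, fell in 16 of 21 cases and rose in 0 (median -3.12). H19, a noncoding RNA that overlaps Mir675, stood at 1680, 4320 and 893 in the P1 libraries and 2.92, 2.36 and 5.41 in the P28 libraries (log2 fold change -8.73 ± 0.67, adjusted p = 3.53e-07). Dlk1, a growth inhibitor, stood at 249, 442 and 111 in the P1 libraries and had no read in the P28 libraries. This was at least 66.9-fold lower. Igf2, the fetal growth factor, stood at 14200, 36900 and 8880 in the P1 libraries and 7780, 7220 and 7140 in the P28 libraries (log2 fold change -1.18 ± 0.35, adjusted p = 0.0194). Without the second P1 library the fall of Igf2 was -0.61 and no longer passed the fold threshold. That library was also the highest in fibroblast markers, among which Igf2 is listed.

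Neurogenic transcription factors fell in 19 of 32 cases and rose in 2 (median -2.96, or -2.09 with genes without reads at their bound, and -0.04 among genes with 10 reads in every library). Sox11, a factor of immature neurons, stood at 2600, 1390 and 3690 in the P1 libraries and 99.4, 204 and 131 in the P28 libraries (log2 fold change -4.09 ± 0.33, adjusted p = 5.96e-07). Meis2 stood at 1110, 1580 and 1370 in the P1 libraries and 2.92, 28.3 and 59.5 in the P28 libraries (log2 fold change -6.13 ± 0.78, adjusted p = 3.8e-05). Neurod1, which marks granule neurons as well, rose by 3.44. Of 19 glial transcription factors 8 fell and 2 rose (median -0.78). Olig2, the factor of the oligodendrocyte lineage, stood at 1740, 2010 and 1220 in the P1 libraries and 611, 262 and 20.3 in the P28 libraries (log2 fold change -3.43 ± 0.81, adjusted p = 0.00482). Nfia and Nfix, which drive gliogenesis, did not pass, at 8260, 8180 and 8460 and 9250, 9720 and 11500 for Nfia at P1 and P28. In the same family Nfic rose by 1.89 and Nfib fell by 0.78, but Nfib no longer passed the fold threshold without P1 replicate 1 (-0.72) or P1 replicate 3 (-0.61). Id4 rose by 2.18 and Id3 fell by 2.19.

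Axon guidance genes fell in 39 of 66 cases and rose in 9 (median -1.74). Draxin, a chemorepellent, stood at 3160, 1540 and 2310 in the P1 libraries and 5.85, 1.18 and 1.35 in the P28 libraries (log2 fold change -9.42 ± 0.66, adjusted p = 1.3e-07). Robo1, a receptor for Slit proteins, stood at 6610, 8430 and 6480 in the P1 libraries and 275, 170 and 248 in the P28 libraries (log2 fold change -4.97 ± 0.25, adjusted p = 5.3e-09). Slit1, a ligand of Robo receptors, stood at 310, 276 and 340 in the P1 libraries and had no read in the P28 libraries. This was at least 77.3-fold lower. Dcc, Epha5 and Ntn1 fell by 7.29, 8.44 and 4.42. The members that rose included Sema6d at 8290, 5800 and 7130 in the P1 libraries and 24900, 26400 and 25100 in the P28 libraries (log2 fold change 1.86 ± 0.17, adjusted p = 1.83e-06), and Plxnb3 and Sema4d, which oligodendrocytes express, rose by 2.66 and 2.62. Between 30 and 40 members were lower with each library left out.

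Ncan, neurocan, a proteoglycan of juvenile brain, stood at 71900, 65400 and 53400 in the P1 libraries and 3310, 4480 and 3540 in the P28 libraries (log2 fold change -4.08 ± 0.25, adjusted p = 4.3e-08). Tnc, tenascin-C, stood at 28800, 18700 and 22800 in the P1 libraries and 7770, 6960 and 10800 in the P28 libraries (log2 fold change -1.46 ± 0.27, adjusted p = 0.000751). Bcan, brevican, stood at 6660, 7200 and 5370 in the P1 libraries and 5630, 6800 and 5680 in the P28 libraries (log2 fold change -0.08 ± 0.21, adjusted p = 0.791). Neurocan and tenascin-C fell without overlap, and brevican overlapped between the ages. Of the 15 genes of this group 6 fell and 3 rose (median -1.46). Tnr rose by 1.38 and Hapln2, a link protein of nodes of Ranvier, by 4.85. Collagens fell in 17 of 25 cases and rose in 2, or in 1 without P28 replicate 2 or with any P1 library left out (median -2.04). Col3a1 stood at 4000, 8630 and 2050 in the P1 libraries and 538, 363 and 544 in the P28 libraries (log2 fold change -3.12 ± 0.37, adjusted p = 2.16e-05). It was highest in the second P1 library, as were the fibroblast markers, which include Col1a1, Col1a2 and Col3a1.

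Secreted factors that act on synapses went both ways, with 5 of 17 higher and 5 lower (median -0.56, and 0.18 among genes with 10 reads in every library). Sparcl1, hevin, which promotes synapse formation, stood at 79600, 82800 and 81600 in the P1 libraries and 232000, 214000 and 265000 in the P28 libraries (log2 fold change 1.54 ± 0.19, adjusted p = 3.44e-05). Sparc, its antagonist, stood at 7590, 15000 and 7570 in the P1 libraries and 43900, 45300 and 55700 in the P28 libraries (log2 fold change 2.33 ± 0.25, adjusted p = 9.46e-06). Both rose. Gpc6, a glypican that recruits AMPA receptors, rose by 2.42. The members that fell were Thbs2, Thbs3, Thbs4, Chrdl1 and Tnf, of which Chrdl1 and Thbs4 were not called by edgeR with TMM scaling (adjusted p = 0.0524 and 0.0829). For phagocytosis 4 of 14 genes rose and 4 fell (median 0.11), but 2 were higher without P1 replicate 3, 2 were lower without P1 replicate 1 or 2, and 0 were higher and 4 lower when scaled by library totals. Of 15 complement and MHC class I genes 4 rose and 0 fell (median 0.72), but 2 were higher without P1 replicate 3 and 2 when scaled by library totals. Among them was B2m at 924, 1920 and 668 in the P1 libraries and 4750, 5850 and 5010 in the P28 libraries (log2 fold change 2.29 ± 0.28, adjusted p = 2.38e-05).

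Of 77 tested genes of cytosolic ribosomal proteins 34 fell and 0 rose, with a median of -0.71 and a range from -1.56 to 0.11. They summed to 19300 to 22800 CPM at P1 and 9120 to 9710 CPM at P28. Scaled by library totals, 64 were lower (median -1.15), and 27 to 40 were lower with each library left out. Eef1a1, the elongation factor of translation, fell by 0.99. Many ribosomal protein genes have processed copies elsewhere in the genome, so single members are uncertain. Immediate early genes, which neural activity and dissociation of tissue both induce, fell in 10 of 21 cases and rose in 2, summing to 6140 to 7610 CPM at P1 and 1570 to 2420 CPM at P28. Egr1 stood at 40100, 40500 and 31400 in the P1 libraries and 4980, 5690 and 9120 in the P28 libraries (log2 fold change -2.54 ± 0.26, adjusted p = 5.08e-06). Fos stood at 9960, 9490 and 7210 in the P1 libraries and 2970, 2980 and 3450 in the P28 libraries (log2 fold change -1.49 ± 0.16, adjusted p = 7.59e-06). The heat shock genes Hspa1a and Hspa1b, which rose by 2.68 and 2.86, are near-identical copies.

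**Figure D4:**
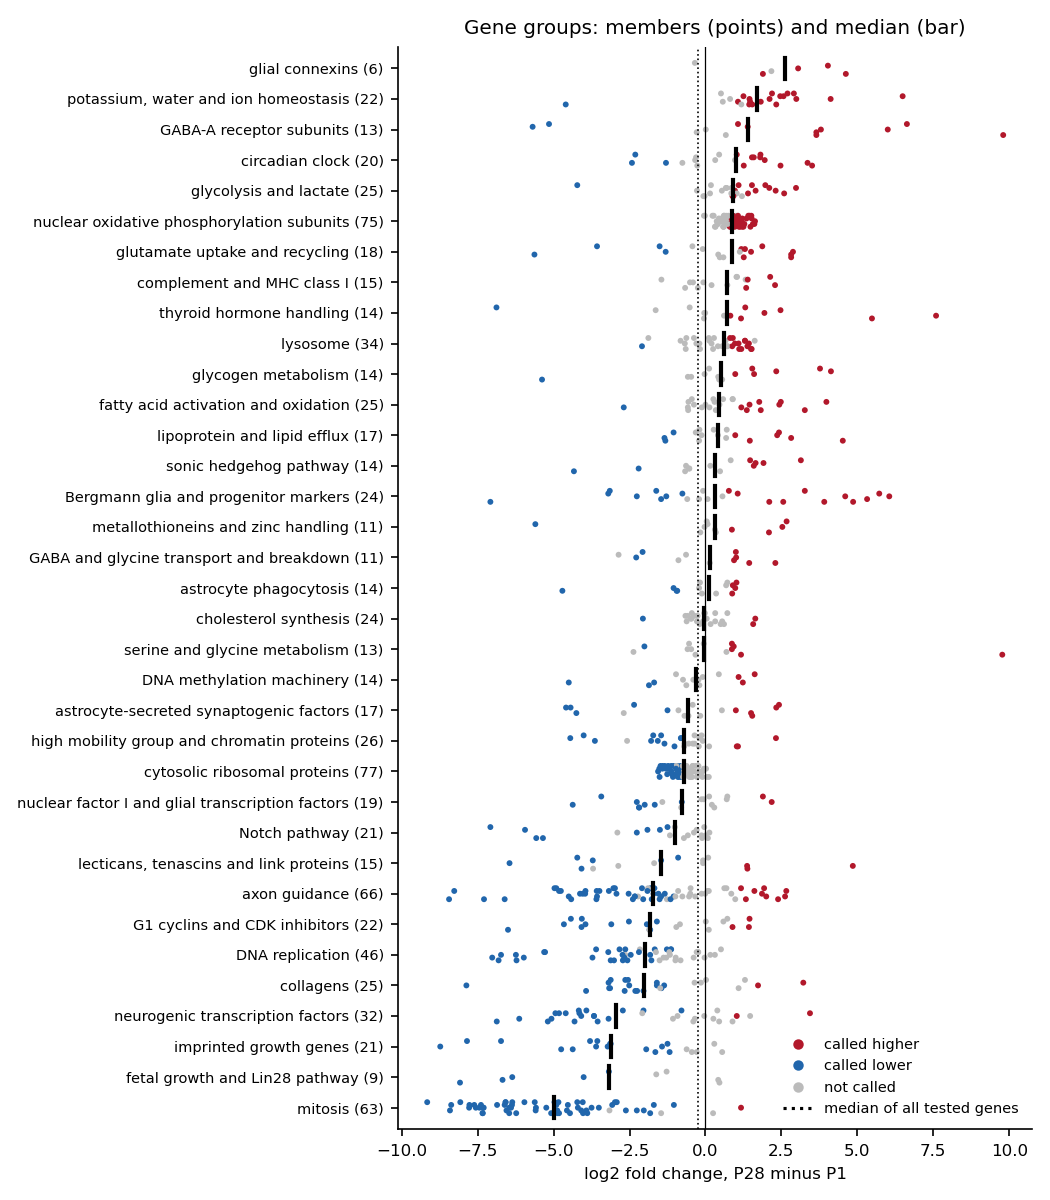
Log2 fold change from P1 to P28 of the tested members of 35 gene groups, marker lists of other cell types left out (number tested in parentheses), coloured by call, with the group's median as a black bar and the median of all tested genes (-0.235) as a dotted line. Connexins and ion homeostasis lie at the top of these groups with medians of 2.61 and 1.68, and mitosis at the bottom with -4.97.

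Per length (reads per kilobase of exon, scaled to the same total in each library), abundant protein-coding transcripts at P1 included Sparcl1, at 14400 ± 869 (SD, n = 3), Fabp7 at 6600 ± 113, and Ptn, a growth factor of radial glia, at 6540 ± 1280. At P28 Ttr led with 30700 ± 24500, an SD close to its mean, followed by Sparcl1 at 29200 ± 2920 and Ckb, brain creatine kinase, at 9730 ± 648. Fabp7 and Ptn then stood at 1510 ± 220 and 1690 ± 147. The entries Mir6236 and Cdr1 also ranked high at P28, and their counts are uncertain, since reads of other transcripts may have been assigned to them.

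Among the genes called higher, the largest of the 3 steps was P1 to P7 in 15.8%, P7 to P14 in 58.8% and P14 to P28 in 25.5%, and among those called lower 13.0%, 40.2% and 46.8%. All 3 steps pointed in the direction of the net change in 606 higher genes (29.5%) and 950 lower genes (32.9%), against 14.8% and 17.4% of all tested genes with a net change above 0 and at or below 0. Over all tested genes with a net change above 0 the 3 shares were 23.0%, 43.3% and 33.7%, and at or below 0 they were 16.9%, 39.7% and 43.3%. In 938 genes called higher (45.6%) the P7 or P14 mean lay below that of P1, and in 1440 called lower (49.8%) it lay above. Slc1a3 had a mean of 10470 at P7 and 59640 at P14, and Mt2 340 and 8738, so both stood lower at P7 than at either end. Top2a stood at 7078 at P7 and 318 at P14, and Dcc at 7624 and 164. Mbp reached 146200 at P14, above its level at P28. These steps share libraries with the net change and are descriptions without a test.

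**Figure D5:**
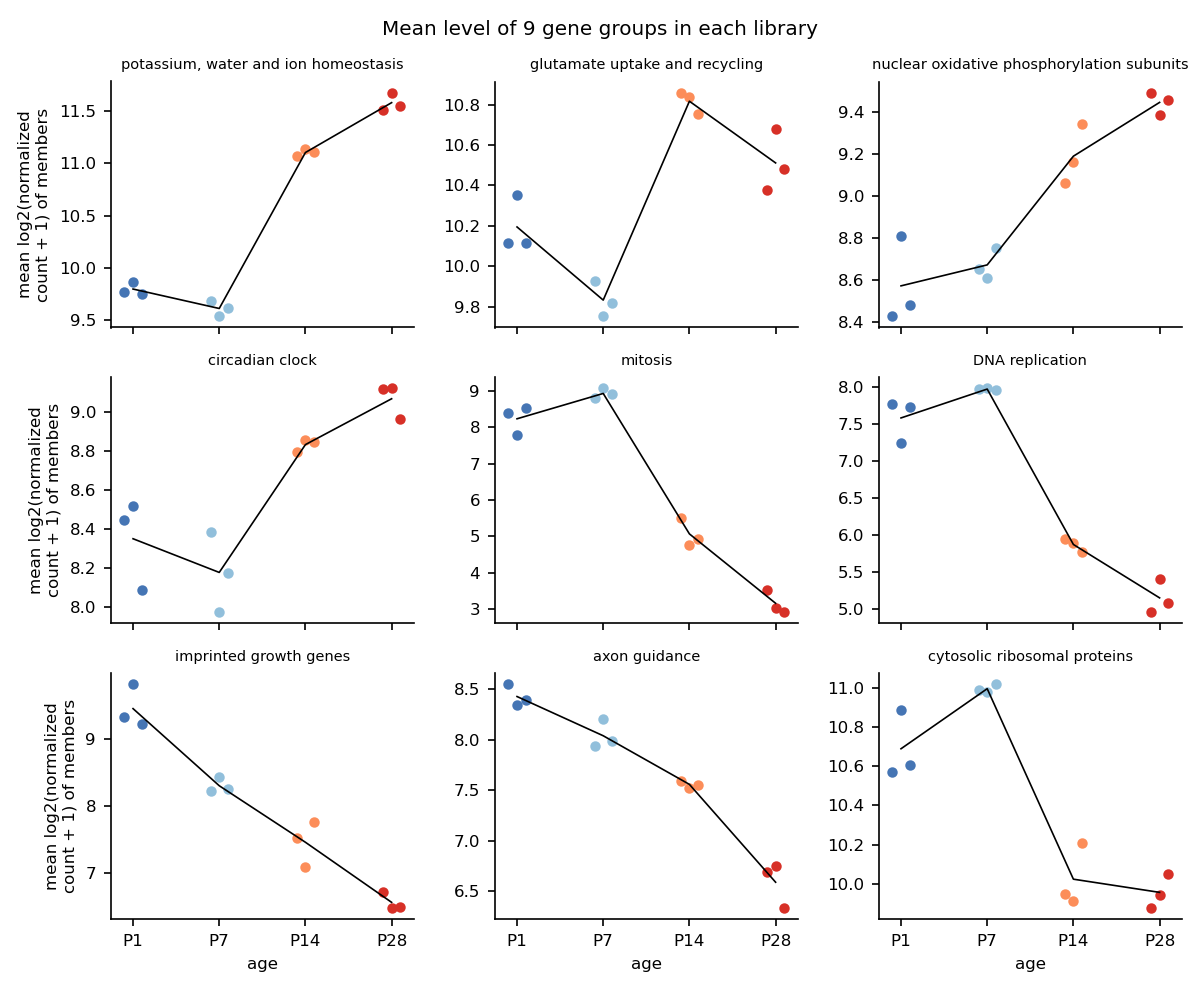
Mean log2(normalized count + 1) over the tested members of 9 gene groups in each of the 12 libraries, by age, with a line through the age means (axes differ and do not start at 0). Mitosis, replication and ribosomal protein genes are highest at P7, and imprinted and axon guidance genes lie lower at each later age.

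A net change near 0 could hide a large excursion. Of 2260 genes with a net change under 0.25 in size and at least 10 CPM at some age, 136 had a P7 or P14 mean more than 1 (log2) above both ends and 122 more than 1 below. Erbb3, a neuregulin receptor of the oligodendrocyte and Schwann cell lineages, averaged 14.1 at P1, 280 at P14 and 16.3 at P28, and Synpr, a synaptic vesicle protein, 29.5, 380 and 68.3. Sgk2, with the largest peak, averaged 146 at P14 and under 1 at both ends.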

How the data were processed

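RNA of GFP-positive cerebellar cells was sequenced at 4 ages (P1, P7, P14, P28) with 3 libraries per age, 12 in all. Per the labels and the study's methods, the authors aligned reads to mm10 with STAR 2.5.0a and normalized gene counts with DESeq2, and the submitters' processing notes list version 1.30.1 of it. The deposited signal values are counts divided by a size factor of each library, and whole reads were recovered from them for 100% of values (tolerance 0.01). Use of strand in counting is not given in the sources used here.

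Groups came from the sample labels. Values were tested as log2(value + 1) with limma 3.58.1 in R 4.3.3 (empirical Bayes with trend) over all 12 libraries, for the contrast P28 minus P1, on genes with at least 10 in 3 libraries, with Benjamini-Hochberg adjustment. Calls required an adjusted p below 0.05 together with a log2 change larger than 0.75 in either direction. Errors of fold changes are SE. Alternatives were edgeR 4.0.16 and DESeq2 1.42.0 on the recovered reads, other scalings, pseudocounts, filters and thresholds, a replicate block, and leaving out each library. The scripts were tested on simulated data, in which the test missed part of the altered genes, so a gene that did not pass is not shown to be unchanged. A floor of 3 reads per library set the bounds for genes without reads. These floors cover counting error only, whereas SE and SD come from the spread between libraries.

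The comparison, the gene lists and the motifs were chosen with earlier results of these data known. Named genes were marked members of the lists, the 10 largest called changes in each direction on the log2 and CPM scales, the 2 most abundant members of each list, the 10 most abundant genes per length at each age and the 5 largest peaks and dips between the ages. Further list members, such as Fxyd1, Fxyd6, Pygm, Pygl, Lcat, Crym, Robo1, Dcc, Meis2, Slc1a5 and Slc16a3, were chosen after their values were seen. Gene positions are from GENCODE on GRCm38, the build of mm10, and promoters from RefSeq on GRCm38.p6. A few genes that the naming rule selects are not reported here.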

Additional observations from a re-analysis of the deposited data

How the results depend on the processing

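Of 20 alternatives, scaling by library totals gave 1222 genes higher and 4759 lower, a log2 threshold of 2 left 742 and 1900, and 10 reads in every library left 1918 and 1358. The other counts stayed within 1.5 times of 2057 and 2891, with 2272 and 2295 by edgeR with TMM, 2547 and 2960 by DESeq2, 1576 and 1938 from the 6 libraries alone, and 1674 to 2216 and 2075 to 3190 with each library left out. edgeR called 2016 and 2261 and DESeq2 2033 and 2607 of the same higher and lower genes, and neither called any in the opposite direction. With DESeq2, list medians were 0.58 for glutamate, 0.63 for serine, -0.64 for glial factors, -2.46 for imprinted, -1.72 for DNA replication, -4.51 for mitosis, -1.43 for cyclins and -0.75 for Notch. With edgeR and DESeq2 size factors, list medians were 0.58 for glutamate, 0.63 for serine, -0.64 for glial factors, -2.45 for imprinted, -1.72 for DNA replication, -4.53 for mitosis, -1.43 for cyclins and -0.75 for Notch. With edgeR and TMM, list medians were 0.61 for glutamate, 0.65 for serine, -0.31 for synaptogenic factors, -0.6 for glial factors, -2.43 for imprinted, -1.69 for DNA replication, -4.49 for mitosis, -1.4 for cyclins and -0.72 for Notch. Scaled by library totals, list medians were 0.45 for glutamate, -0.3 for GABA and glycine, 1.24 for ion homeostasis, -0.5 for serine, -0.02 for lipoproteins, -1.0 for synaptogenic factors, -0.13 for metallothioneins, 0.28 for thyroid, -0.12 for Bergmann glia, -1.21 for glial factors, -3.61 for fetal growth, -3.52 for imprinted, -2.4 for DNA replication, -5.35 for mitosis, -2.17 for cyclins, -1.13 for chromatin, -0.75 for DNA methylation, -1.15 for ribosomal proteins, 0.45 for oxidative phosphorylation, 0.49 for glycolysis, -0.49 for cholesterol, 0.02 for fatty acids, 0.17 for lysosome, 0.63 for clock, -0.12 for hedgehog, -1.44 for Notch, 0.95 for GABA-A receptor subunits, -2.17 for axon guidance and -0.32 for phagocytosis. With a pseudocount of 10, list medians were 0.58 for glutamate, 1.73 for connexins, -1.31 for neurogenic factors, -1.94 for imprinted, -1.69 for DNA replication, -3.81 for mitosis, -1.41 for cyclins, 0.73 for clock, -0.76 for Notch and -1.5 for axon guidance. With 10 reads in every library, list medians were 0.54 for GABA and glycine, 0.18 for synaptogenic factors, 0.99 for thyroid, 0.67 for Bergmann glia, -0.46 for glial factors, -0.04 for neurogenic factors, -1.28 for fetal growth, -1.43 for imprinted, -1.19 for DNA replication, -1.76 for mitosis, -0.84 for cyclins, 1.26 for clock, -0.38 for Notch, -0.08 for lecticans, -1.02 for axon guidance and 3.92 for sex-linked genes. With a pseudocount of 0.1, list medians were -3.89 for neurogenic factors and -5.71 for mitosis. With each library left out in turn, the medians ranged as follows, with the libraries whose removal moved a median by over 1.5 times or across 0 named, from 0.48 to 0.93 for glutamate (without P1 replicate 1 and P28 replicate 2), -0.16 to 0.39 for GABA and glycine (without P28 replicate 2, P1 replicate 3, P28 replicate 1, P28 replicate 3 and P1 replicate 2), 1.69 to 2.02 for ion homeostasis, 2.09 to 3.4 for connexins, -0.09 to 0.25 for serine (without P1 replicate 1, P28 replicate 1 and P28 replicate 3), 0.29 to 0.65 for lipoproteins (without P1 replicate 2 and P28 replicate 2), 0.34 to 1.09 for glycogen (without P1 replicate 2 and P28 replicate 3), -0.64 to -0.33 for synaptogenic factors (without P1 replicate 2), 0.19 to 0.53 for metallothioneins (without P1 replicate 1 and P28 replicate 3), 0.61 to 0.92 for thyroid, 0.13 to 0.43 for Bergmann glia (without P28 replicate 2 and P1 replicate 3), -0.78 to -0.52 for glial factors, -3.9 to -2.19 for neurogenic factors, -3.61 to -2.68 for fetal growth, -3.21 to -2.06 for imprinted (without P28 replicate 2), -2.3 to -1.81 for DNA replication, -5.51 to -4.86 for mitosis, -1.81 to -1.46 for cyclins, -0.46 to -0.16 for DNA methylation (without P28 replicate 1), -0.12 to 0.09 for cholesterol (without P1 replicate 3, P28 replicate 1, P1 replicate 2, P1 replicate 1, P28 replicate 3 and P28 replicate 2), 0.6 to 1.36 for clock (without P1 replicate 3), 0.19 to 0.41 for hedgehog (without P1 replicate 2), -0.94 to -0.72 for Notch, 0.03 to 0.4 for phagocytosis (without P1 replicate 3, P28 replicate 1, P28 replicate 3, P28 replicate 2 and P1 replicate 2) and -3.34 to 0.22 for sex-linked genes (without P28 replicate 1, P28 replicate 2 and P28 replicate 3). Medians of some cell type lists also moved by over 1.5 times or across 0. They ranged from -0.09 (without P1 replicate 3) to 1.57 for choroid plexus and -0.52 to 0.14 (without P1 replicate 3) for pan-neuronal genes. The ranges were -1.04 to -0.21 for microglia, 0.35 to 1.36 for endothelium and -1.76 to -0.65 for oligodendrocyte precursors. The cause of these shifts was not tested, although scaling by library totals shifts all genes alike (median -0.66 against -0.235) and the filter on 10 reads removes genes that fell to 0. For genes named in the text or by the naming rule, 4520 of 4678 values kept their direction and side of the threshold, 97 no longer passed, 61 newly passed and 0 reversed. With the replicate number as a block, 2043 genes were higher and 2900 lower, but deviations of same-numbered P1 and P28 libraries correlated at 0.011, 0.022 and 0.035, so the numbers were not taken as pairs. At an unadjusted p the counts were 2407 and 3676, and genes with few reads are limited by depth.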
